A study of Arabidopsis thaliana with 36 samples.

Results

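Metallothioneins are small, cysteine-rich proteins that hold metal ions, copper and zinc above all, in clusters of thiolates. Arabidopsis has 4 types, told apart by how the cysteines are spaced: type 1 is the form best known from roots and vascular tissue, type 2 is widespread, type 3 is best known from leaves and ripening tissue, and type 4 belongs to seeds. Plants that lack several of them store and redistribute copper poorly, and phytochelatins, peptides made from glutathione, are the other thiol ligands that bind surplus metal. Here the family is described by 5 rows of a table of 33557 genes: MT1A (AT1G07600) and MT1C (AT1G07610) of type 1, MT2A (AT3G09390) and MT2B (AT5G02380) of type 2, and MT3 (AT3G15353) of type 3. They were chosen by name and by the RPKM of MT1A, which is among the highest rows of every library, so the height of MT1A is a description and was not tested. Its differences between groups were not part of that rule, but the members were chosen with earlier results of these data known.

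The study grew Arabidopsis on Petri plates and sequenced polyA RNA from roots with 100-bp reads. All plants were stratified for 1 d at 4 °C, kept at 21 °C under continuous light of 70 µmol m-2 s-1 and harvested 14 d after germination. The 4 groups of 3 libraries each were wild type on control medium (WT control), wild type on low phosphate (WT low Pi), the otu5 mutant, named for the deubiquitinase gene OTU5, on control medium (otu5 control), and otu5 on low phosphate (otu5 low Pi). The labels name no allele for otu5 and leave unsaid what separates 1 replicate from the next, so the p-values here cover the scatter among libraries, which could be purely technical. Of the series' 36 samples these 12 were used, and 8 methylation and 16 chromatin samples were not analysed here. In 6 of the 12 RNA samples the culture condition label contradicts the title, and groups were taken from titles and source names. The tissue label and the growth text say root, whereas the isolation text names rosette leaves.

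Values are the deposited RPKM, reads scaled by gene length and library size, which allow levels of different genes to be compared per length; the absolute depth of each library is unknown. The RPKM of a library summed to between 993382 and 1330831, and AT2G01021 alone took between 2.1% and 23.9% of that sum, the most in WT control replicate 3. Transcripts of OTU5 itself (AT3G62940) stood at 40.9 ± 1.90 RPKM in WT control and 39.9 ± 0.926 in WT low Pi, against 1.36 ± 0.336 in otu5 control and 0.811 ± 0.329 in otu5 low Pi (SD, n = 3), so the genotype labels hold. Markers of the root endodermis were present in every library, the 8 genes summing to between 201 and 307 RPKM, with none at 0. The 20 markers of green shoot tissue, also with none at 0, summed to between 1399 and 2594 RPKM.

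MT1A was the most abundant row in 9 of the 12 libraries and the second in the other 3, where AT2G01021 stood above it. In WT control it measured 126785, 125770 and 115097 RPKM. WT low Pi held 127678, 113376 and 104044 RPKM. The otu5 control libraries held 102523, 100742 and 94367 RPKM, and those of otu5 low Pi 86025, 90891 and 87325. Every otu5 library lay below every WT library, and the lowest 3 values were those of otu5 low Pi. How many of all genes separate over the 12 libraries in this way was not counted, here or for the members below. The next row below, AT2G40205, reached between 8096 and 13438 RPKM, so MT1A stood between 6.50 and 15.5 times above it.

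MT1C is the tandem neighbour of MT1A, with no other gene of the table between them, and encodes a type 1 protein of close sequence. It ranked between 27th and 64th. Its values were 1151, 1237 and 1180 RPKM in WT control and 1439, 1345 and 1222 in WT low Pi, against 1092, 939 and 956 in otu5 control and 989, 1109 and 969 in otu5 low Pi. Here too every otu5 library lay below every WT library. The sources used here do not say how reads that match both type 1 genes were assigned, so the split between MT1A and MT1C is uncertain.

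MT2B, a type 2 gene known from phloem and roots, stood close to MT1C per length, with a ratio of MT2B to MT1C between 0.945 and 1.25 within a library. It measured 1322, 1544 and 1413 RPKM in WT control and 1359, 1464 and 1511 in WT low Pi. The values in otu5 control were 1102, 1130 and 1104 RPKM, and in otu5 low Pi 1073, 1205 and 1049. The genotypes did not overlap, and the 2 media overlapped within each genotype.

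MT3, the type 3 gene, held the fourth place in the family. Its RPKM values were 514, 541 and 483 in WT control, 465, 457 and 429 in WT low Pi, 446, 446 and 420 in otu5 control and 404, 351 and 410 in otu5 low Pi. It was highest in WT control and lowest in otu5 low Pi, each without overlap with another group, and the 2 middle groups overlapped.

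MT2A, the second type 2 gene, was the scarcest member and had another order of groups. The WT control libraries held 89.6, 99.8 and 88.0 RPKM and the otu5 control libraries 103, 105 and 103. WT low Pi was spread widely, at 86.6, 112 and 155 RPKM, and otu5 low Pi held 165, 174 and 137. The 3 highest values of MT2A thus came from 2 otu5 low Pi libraries and WT low Pi replicate 3, while WT low Pi replicate 1 was the lowest of all 12.

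**Figure D1:**
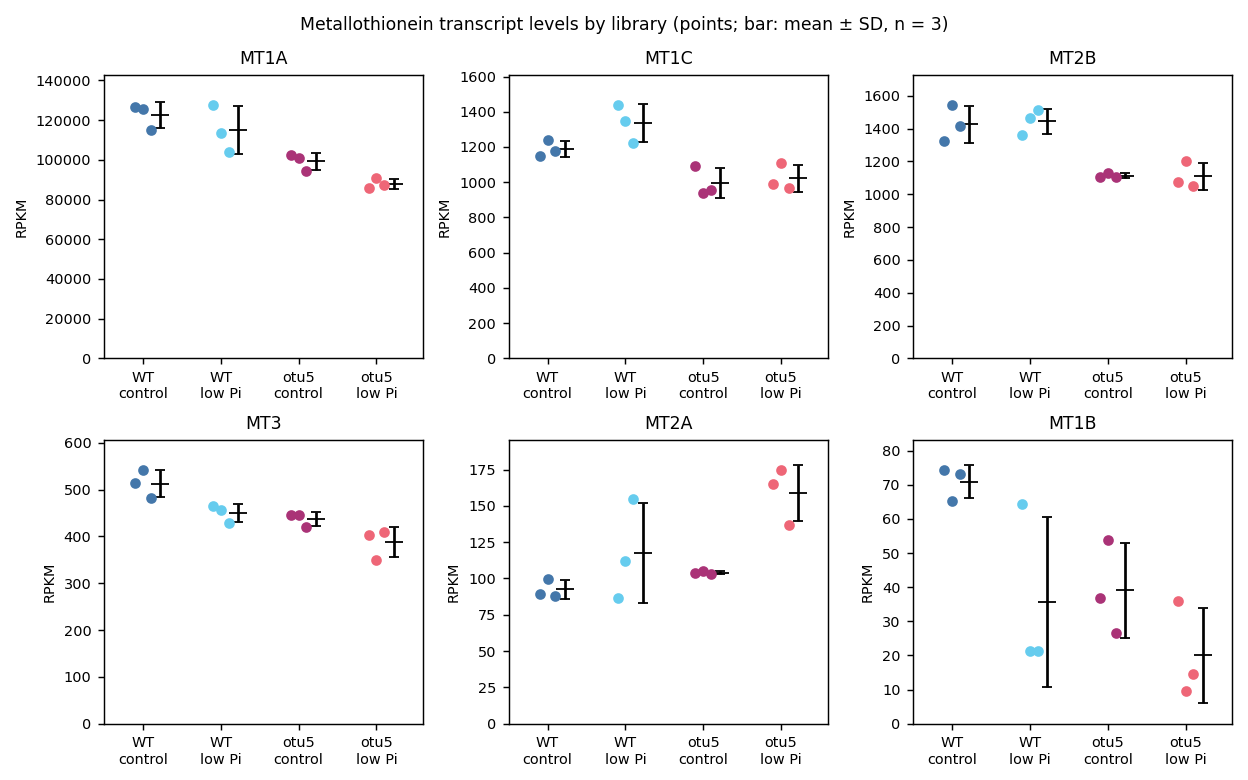
Level of each metallothionein in RPKM on a linear axis starting at 0, 1 point per library, with the mean and SD of each group of 3 as a bar. MT1A, MT1C and MT2B are lower in all 6 otu5 libraries than in all 6 WT libraries, MT2A has its highest group mean, 159 RPKM, in otu5 low Pi, and MT1B spreads widely outside WT control. The share of all genes that separate the genotypes over all libraries was not counted.

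The order of levels was therefore MT1A far above MT2B and MT1C, then MT3, then MT2A, and MT2B and MT1C exchanged places in 1 library, WT low Pi replicate 1. MT1A made up between 96.9% and 97.6% of the summed RPKM of the 5 members, MT2B between 1.02% and 1.41%, MT1C between 0.886% and 1.18%, MT3 between 0.355% and 0.456%, and MT2A between 0.0661% and 0.186%. The family total was 125772 ± 6514 RPKM in WT control, 118381 ± 11917 in WT low Pi, 101860 ± 4357 in otu5 control and 90758 ± 2646 in otu5 low Pi (SD, n = 3). Set against the summed RPKM of each library without AT2G01021, the family took 12.3% ± 0.527 in WT control, 11.6% ± 1.03 in WT low Pi, 10.4% ± 0.384 in otu5 control and 9.50% ± 0.0909 in otu5 low Pi.

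On control medium, MT1A and MT2B were lower in otu5 than in WT, and no member passed the test in the other direction. MT1A averaged 99211 ± 4288 RPKM in otu5 control against 122551 ± 6475 in WT control, 0.810 times the WT level (log2 difference -0.30, SE 0.08, limma adjusted p = 0.04). MT2B averaged 1112 ± 15.2 against 1427 ± 112 RPKM, 0.781 times the WT level (log2 -0.36, SE 0.07, adjusted p = 0.015). MT1C, MT3 and MT2A did not pass, with log2 differences of -0.26 (SE 0.08, limma adjusted p = 0.07), -0.23 (SE 0.07, adjusted p = 0.062) and 0.17 (SE 0.17, adjusted p = 0.57). Log2 differences throughout are on the scale log2(RPKM + 0.5), and a call is a Benjamini-Hochberg adjusted p under 0.05 over the 20411 genes tested.

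Both called members moved down, 2 of 5, where 5.52% of all genes tested were called lower and 10.4% were called in either direction. The 3 libraries of each group did not overlap for any of the 5 members, 4 lower in otu5, beside 17.2% of all genes, and MT2A higher, beside 15.9%; 33.2% of all genes did not overlap in either direction. The exact two-sided permutation test gave p = 0.1 for each of the 5, the smallest value that 3 libraries against 3 allow. The MT1A call was lost when any 1 of the 6 libraries was left out, with adjusted p between 0.055 and 0.14, and the MT2B call without WT control replicate 3 (0.051) or otu5 control replicate 3 (0.058). Among all genes called, 46.8% were higher in otu5, and 74.0% were with each library divided by its sum without AT2G01021; on that scale MT1A stood at log2 -0.23 (limma adjusted p = 0.067) and MT2B at -0.29 (adjusted p = 0.026). Quantile normalization gives each row a value set by its rank in its library. MT1A had rank 2 in WT control replicate 3 and otu5 control replicate 1, and rank 1 in the other libraries of both groups. Its log2 difference of 0.00 there is therefore fixed by rank and is no test of MT1A. MT2B stood at -0.28 (limma adjusted p = 0.041).

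On low phosphate, MT1A, MT1C and MT2B were lower in otu5 than in WT. MT1A averaged 88080 ± 2519 RPKM against 115033 ± 11904, 0.768 times the WT level (log2 -0.38, SE 0.08, limma adjusted p = 0.017). MT1C averaged 1022 ± 75.9 against 1336 ± 109 RPKM, 0.766 times (log2 -0.38, SE 0.08, limma adjusted p = 0.016). MT2B averaged 1109 ± 83.9 against 1445 ± 77.8 RPKM, 0.767 times (log2 -0.38, SE 0.07, limma adjusted p = 0.01). The 3 genes, of types 1 and 2, thus had nearly the same log2 difference, although within a library MT1A stood between 68.9 and 95.9 times the level of MT2B and between 82.0 and 110 times that of MT1C. MT3 stood at log2 -0.22 (SE 0.07, limma adjusted p = 0.074) and MT2A at 0.46 (SE 0.17, adjusted p = 0.11), and neither passed.

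The 3 of 5 called lower stand beside 5.91% of all genes tested in this comparison, with 9.91% called in either direction. The groups did not overlap for MT1A, MT1C, MT2B and MT3, all lower in otu5, where 14.5% of all genes did so, and each had an exact permutation p of 0.1. MT2B stayed called with any 1 library left out. MT1A lost its call without WT low Pi replicate 1 (limma adjusted p = 0.063) or otu5 low Pi replicate 1 (0.071), and MT1C without WT low Pi replicate 1 (0.069), WT low Pi replicate 2 (0.055) or otu5 low Pi replicate 1 (0.068). Without WT low Pi replicate 3, in which MT2A was highest of its group, MT2A had a log2 difference of 0.68 and a limma adjusted p of 0.0082. Whether MT2A passes thus depends on that library, and also on the scaling. Of all genes called, 40.4% were higher in otu5, and 77.4% were after division by the library sum; on that scale the 3 calls held, at log2 -0.28 for MT1A and -0.29 for MT1C and for MT2B, and MT2A passed at 0.56 (adjusted p = 0.049). Under quantile normalization none of the 3 passed, at log2 -0.36 for MT1A, -0.24 for MT1C and -0.19 for MT2B (limma adjusted p = 0.62, 0.075 and 0.13). The MT1A value is again set by rank alone and is no test of MT1A. Its rank was 2 in otu5 low Pi replicate 1 and 1 in the other libraries of both groups.

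**Figure D2:**
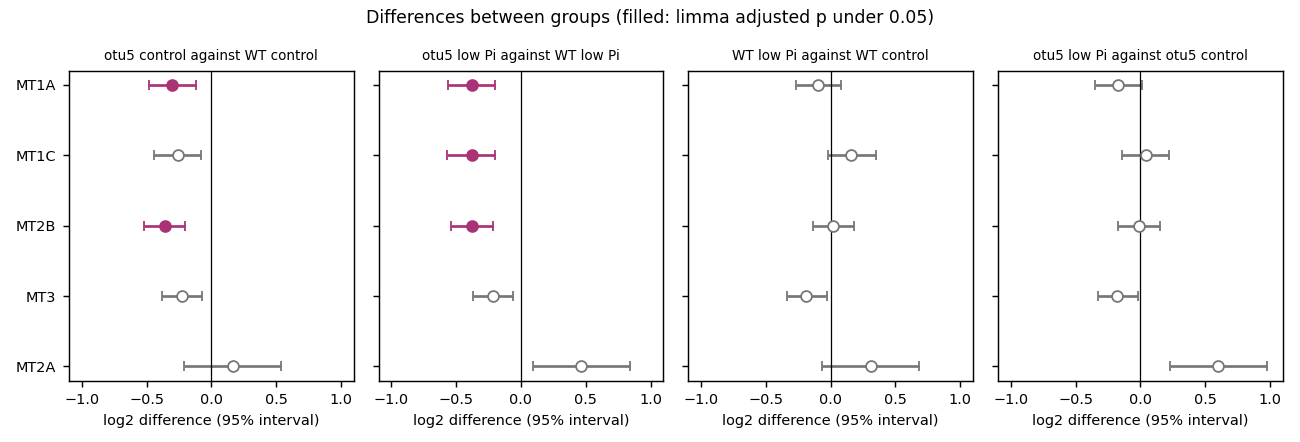
Log2 difference of each member on the scale log2(RPKM + 0.5) in the 4 pairwise comparisons, as points with 95% intervals from limma; filled points passed at an adjusted p under 0.05. MT1A, MT1C and MT2B share a log2 difference of -0.38 between the genotypes on low phosphate, and the intervals of MT2A are the widest.

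With the genotype difference averaged over both media, a contrast added after the data were seen, 4 of the 5 members were lower in otu5, where 13.7% of all genes tested were called lower and 25.5% in either direction. MT2B stood at log2 -0.37 (SE 0.05, limma adjusted p = 0.00083), MT1A at -0.34 (SE 0.06, adjusted p = 0.0022), MT1C at -0.32 (SE 0.06, adjusted p = 0.0031) and MT3 at -0.22 (SE 0.05, adjusted p = 0.0085). MT2A pointed the other way without passing, at 0.32 (SE 0.12, limma adjusted p = 0.079). These 4 calls held with any 1 of the 12 libraries left out, and MT2A passed as well without WT low Pi replicate 3 (0.42, limma adjusted p = 0.0048). MT3 lost its call after division by the library sum (log2 -0.14, adjusted p = 0.071), where 76.8% of called genes were higher in otu5 against 46.3% before. Under quantile normalization MT1C and MT2B stayed called, MT1A (log2 -0.18, limma adjusted p = 0.68) and MT3 (-0.12, adjusted p = 0.16) did not, and MT2A passed (0.36, adjusted p = 0.042). The MT1A value under quantile normalization is set by its rank alone. In bulk roots, fewer cells that make a transcript and less of it per cell cannot be told apart.

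No metallothionein passed in limma between the media in WT roots, a comparison in which 4.29% of all genes tested were called. MT1A had a log2 difference of -0.10 (SE 0.08, limma adjusted p = 0.58) and MT1C of 0.16 (SE 0.08, adjusted p = 0.3). MT2A stood at 0.31 (SE 0.17, adjusted p = 0.35), with a 95% interval from -0.07 to 0.68. MT2B stood at 0.02 (SE 0.07, adjusted p = 0.92) and MT3 at -0.19 (SE 0.07, adjusted p = 0.16). MT3 was the 1 member whose groups did not overlap, lower on low phosphate, as for 12.5% of all genes. Before adjustment, 1 member, MT3, was under 0.05. WT libraries of the same replicate number deviated together, and with the number as a block in the WT libraries alone 1696 genes were called in place of 875 and still no member, MT3 coming closest (adjusted p = 0.06). Of the 875 genes, 59.4% were higher, and 69.7% of those called were after division by the library sum.

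Within otu5, low phosphate also gave no call among the members, where 8.59% of all genes were called. MT2A came nearest: its mean was 159 ± 19.5 RPKM on low phosphate against 104 ± 1.07 on control medium, 1.52 times as high (log2 0.60, SE 0.17, limma adjusted p = 0.053), and its groups did not overlap, as for 14.1% of all genes in that direction. Without otu5 low Pi replicate 3 it passed, at 0.71 (limma adjusted p = 0.036), and after division by the library sum also, at 0.63 (adjusted p = 0.042), where 72.2% of called genes were higher against 56.0% before. MT1A stood at -0.17 (SE 0.08, limma adjusted p = 0.23) and MT3 at -0.18 (SE 0.07, adjusted p = 0.15), each lower without overlap, as were 14.3% of all genes. MT1C at 0.04 (limma adjusted p = 0.82) and MT2B at -0.01 (adjusted p = 0.97) overlapped. Before adjustment, 2 members, MT2A and MT3, were under 0.05.

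Averaged over both genotypes, again a contrast added after the data were seen, MT2A was higher on low phosphate and MT3 lower, beside 9.65% of all genes called higher and 8.52% called lower. MT2A had a log2 difference of 0.46 (SE 0.12, limma adjusted p = 0.025) and MT3 of -0.18 (SE 0.05, adjusted p = 0.029). Both calls were fragile. MT2A lost its call without any 1 of WT control replicates 1 and 3, otu5 control replicate 3 and otu5 low Pi replicates 1 and 2, with limma adjusted p between 0.054 and 0.06. MT3 lost its call without any 1 of 6 libraries (WT control 1 and 2, WT low Pi 3, otu5 control 1 and 2, otu5 low Pi 2), with limma adjusted p between 0.053 and 0.062, and after division by the library sum (0.061), where 64.1% of called genes were higher against 53.1% before. MT1A, MT1C and MT2B stood at -0.13, 0.10 and 0.01 (limma adjusted p = 0.14, 0.26 and 0.95).

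The interaction, the low phosphate difference in otu5 minus that in WT, called no member and 1 gene in all, 0.0049% of those tested. Its log2 values were -0.08 for MT1A, -0.13 for MT1C, 0.30 for MT2A, -0.03 for MT2B and 0.01 for MT3, with 95% intervals that all include 0 and reach from -0.23 to 0.83 for MT2A, and unadjusted p-values between 0.24 and 0.92. For MT2A the 2 genotypes are therefore not shown to differ in the response, nor shown to be alike.

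**Figure D3:**
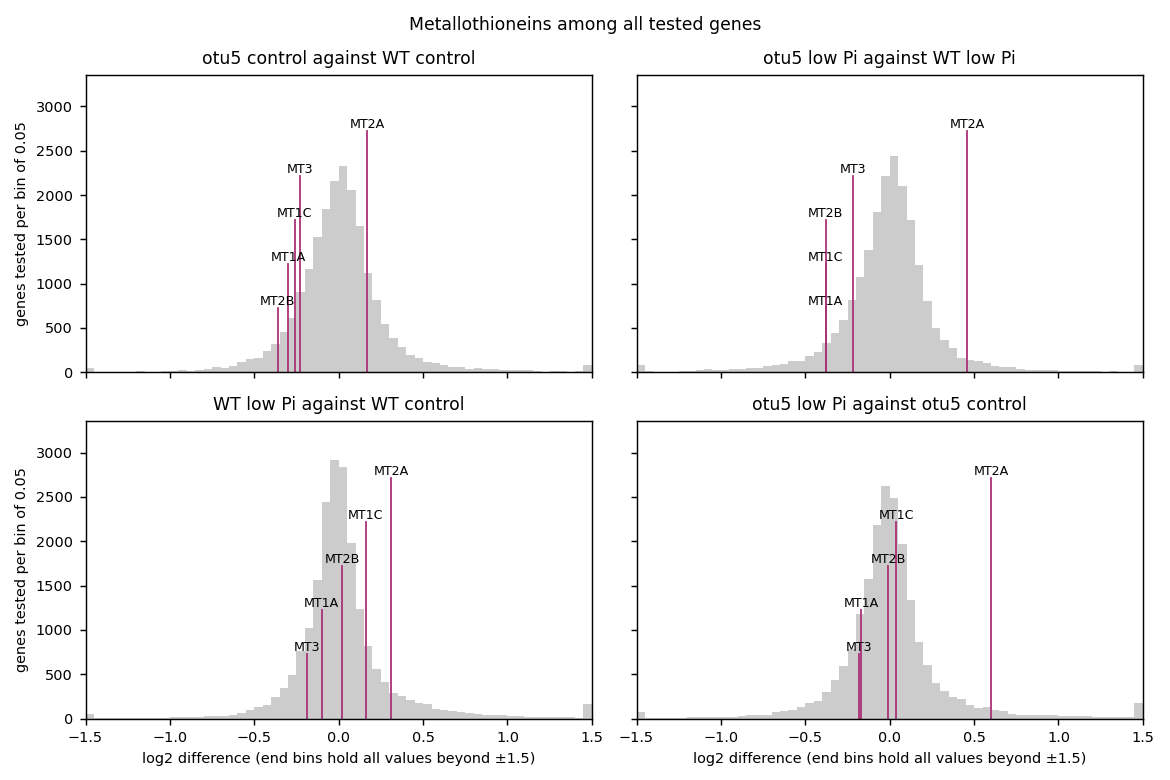
Number of tested genes per 0.05 step of log2 difference in each pairwise comparison (grey), with the log2 difference of each metallothionein as a labelled line; line heights only separate the labels. In otu5 low Pi against WT low Pi, MT1A, MT1C and MT2B share 1 line in the lower tail and MT2A stands in the upper tail.

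Among all genes tested, the median log2 difference lay between -0.011 and 0.006 in these pairwise comparisons. For otu5 low Pi against WT low Pi, 7.0% of genes had a lower value than MT1A, 6.9% than MT1C, 6.9% than MT2B, 15.5% than MT3 and 95.9% than MT2A. For otu5 low Pi against otu5 control, 96.2% of genes had a lower value than MT2A. The metallothionein differences thus lay within the range of many other genes.

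Ratios within a library do not depend on how that library was scaled. The ratio of MT2B to MT2A was 14.7, 15.5 and 16.1 in WT control and 15.7, 13.1 and 9.76 in WT low Pi. It was 10.6, 10.8 and 10.7 in otu5 control and 6.50, 6.91 and 7.66 in otu5 low Pi. All otu5 control libraries lay below all WT control libraries, and otu5 low Pi lay below every other library. Within each medium the 2 type 2 genes thus lay nearer to each other in otu5. Across media the genotypes overlapped, since WT low Pi replicate 3, at 9.76, lay below the otu5 control libraries. The ratio of MT1A to MT1C was 103 ± 6.43 in WT control and 99.9 ± 6.75 in otu5 control, against 86.0 ± 2.38 in WT low Pi and 86.4 ± 4.13 in otu5 low Pi (SD, n = 3). That ratio separated the media in both genotypes, the highest low Pi library standing at 90.2 and the lowest control library at 93.9. Neither MT1A nor MT1C was called between the media, and the split of reads between them is uncertain. How often other gene pairs separate groups in this way was not tested.

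The annotation places genes across 2 of the members, and RPKM of overlapping genes can hold the same reads. MT1A, a locus of 418 bp, lies wholly inside the span of AT1G07590, which measured 925 ± 52.9 RPKM in WT control, 880 ± 58.9 in WT low Pi, 753 ± 49.0 in otu5 control and 698 ± 17.5 in otu5 low Pi. That is between 0.721% and 0.799% of MT1A in every library, and over the 12 libraries AT1G07590 had a Pearson r of 0.97 with MT1A (0.82 within groups), a description over libraries that share scaling. AT1G07590 was lower in otu5 on control medium (log2 -0.30, limma adjusted p = 0.023) and on low phosphate (-0.33, adjusted p = 0.014), by about as much as MT1A; the first call was lost without any 1 of 4 libraries (WT control 1 and 2, otu5 control 2 and 3) and the second without any 1 of 3 (WT low Pi 1 and 2, otu5 low Pi 1), with limma adjusted p up to 0.09. Whether its reads are those of MT1A was not tested, since the sources used here give neither the strand nor the treatment of shared reads. MT3, a locus of 945 bp, shares 24 bp with COX17, a copper chaperone of mitochondria, which measured between 31.7 and 46.1 RPKM and passed in no pairwise comparison. The long noncoding RNA AT3G03105, not a row of the table, lies wholly inside MT3 and shares 278 bp with it. MT1C, MT2A and MT2B overlap no annotated gene.

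**Figure D4:**
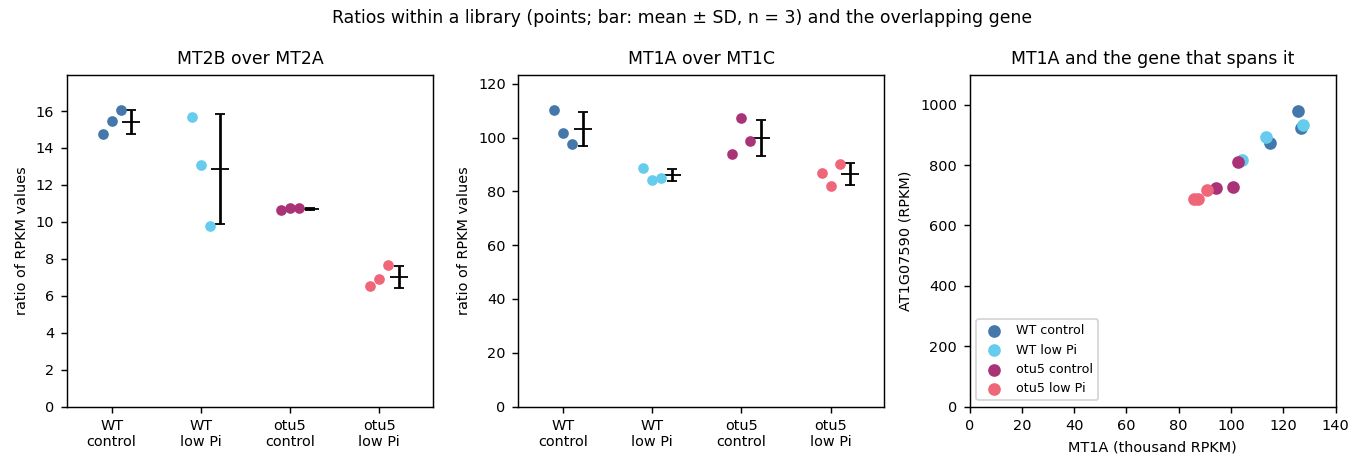
Left and middle, the ratio of MT2B to MT2A and of MT1A to MT1C in each library on axes starting at 0, with the mean and SD of each group of 3; right, AT1G07590 against MT1A in RPKM, 1 point per library. The ratio of MT2B to MT2A is lowest in otu5 low Pi, between 6.50 and 7.66, and AT1G07590 follows MT1A at between 0.721% and 0.799% of its level.

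The rest of the family was scarce. MT1B (AT5G56795), the third type 1 gene, measured 74.3, 65.4 and 73.1 RPKM in WT control and 64.4, 21.4 and 21.2 in WT low Pi. It measured 36.9, 53.9 and 26.5 RPKM in otu5 control and 35.9, 9.68 and 14.6 in otu5 low Pi, so the WT control libraries stood above all others. MT1B was between 0.0107% and 0.0635% of MT1A and passed in none of these comparisons; its log2 difference between WT low Pi and WT control was -1.18 (SE 0.52, limma adjusted p = 0.24). The seed genes of type 4 were near 0: MT4A was listed at 0.388 RPKM in WT control replicate 1 and at 0 in the other 11 libraries. MT4B was listed at 3.81 RPKM in WT control replicate 1, at 0.258 in WT control replicate 2, at 0.254 in otu5 low Pi replicate 3 and at 0 in the other 9.

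Over the 12 libraries MT1A, MT1C, MT2B and MT3 had Pearson r between 0.43 (MT1C with MT3) and 0.85 (MT1A with MT3), whereas MT2A had r of -0.80 with MT3, -0.76 with MT1A and -0.29 with MT2B. After group means were taken out, the r of MT2A with MT2B was 0.69 and that of MT1A with MT2B was -0.22. All these points share libraries and their scaling. The tested genes most like MT1A by Pearson r over 12 libraries were AT5G44020 (0.982), AT3G58000 (0.979) and PRF1, a profilin (0.977). Most like MT1C were DET3, a subunit of the vacuolar proton pump (0.982), AT3G32030 (0.980) and AT1G17080 (0.971). Most like MT2A were the bHLH factor FBH4 (0.979), the amino acid permease AAP3 (0.954) and the tonoplast dicarboxylate transporter TDT (0.952). Most like MT2B were the dehydroascorbate reductase DHAR1 (0.972), the glutathione transferase GSTF9 (0.960) and MGP1 (0.959), and most like MT3 were AT3G22104 (0.967), GATA7 (0.965) and RLP44 (0.956). The lists of neighbours share no gene.

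Of 23 genes of copper homeostasis, 20 were tested. In otu5 control against WT control 2 of the 20 were lower and none higher, beside 10.4% of all genes called in either direction (list median -0.09, all genes 0.003): the superoxide dismutase CSD2 (log2 -0.27, limma adjusted p = 0.03) and the copper transporter COPT5 (-0.27, adjusted p = 0.015). The CSD2 call was lost without any 1 of the 6 libraries (limma adjusted p between 0.056 and 0.097) and the COPT5 call without otu5 control replicate 2 (0.062). In otu5 low Pi against WT low Pi 3 were lower and none higher, beside 9.91% of all genes called (list median 0.03, all genes 0.006), among them FRO4, a copper reductase of the root surface, and COPT2, a plasma membrane copper transporter. FRO4 averaged 0.218 ± 0.198 RPKM in otu5 low Pi against 3.34 ± 1.48 in WT low Pi (log2 -2.37, SE 0.32, limma adjusted p = 0.0025), and COPT2 0.112 ± 0.115 against 1.40 ± 0.137 (log2 -1.65, SE 0.30, adjusted p = 0.0091), which is listed at 0 in 1 otu5 low Pi library. Both are low genes whose change this scale understates. Both passed the filter of 1 RPKM in 3 libraries only through WT low Pi, the group where they were highest. These 2 calls, and that of FRO4 between the media in WT, are therefore a description and no support. On low phosphate 1 was higher and 2 lower in WT, beside 4.29% of all genes called (list median -0.02, all genes -0.005), with FRO4 at 1.45 (limma adjusted p = 0.035) and COPT6 at -0.64 (adjusted p = 0.013). In otu5 1 was higher and none lower, beside 8.59% of all genes (list median 0.01, all genes -0.011), the copper pump HMA5 (0.30, limma adjusted p = 0.047). The FRO4 call in WT was lost without any of the WT control libraries in turn, and without replicate 1 or 2 of WT low Pi (limma adjusted p between 0.061 and 0.11), and that of COPT6 without replicate 3 of WT control (0.062) or replicate 2 of WT low Pi (0.054).

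Among 20 genes of zinc and manganese transport, 18 were tested, and 6 were higher on low phosphate in WT with none lower, beside 4.29% of all genes called in either direction (list median 0.23, all genes -0.005). The zinc transporter ZIP9 averaged 4.26 ± 0.711 RPKM against 1.05 ± 0.0311 (log2 1.60, SE 0.18, limma adjusted p = 0.0013), and ZIP4 25.0 ± 3.52 against 14.8 ± 1.19 (log2 0.74, SE 0.13, adjusted p = 0.014). The 6 became 3 without WT control replicate 1 or replicate 3 and 2 without WT low Pi replicate 2, and each of these left out ended the ZIP4 call (limma adjusted p between 0.05 and 0.066). In otu5, low phosphate gave 1 higher, ZIP3 (0.47, limma adjusted p = 0.026), and 1 lower, the zinc pump HMA2 (-0.82, adjusted p = 0.034), beside 8.59% of all genes called, with a list median of 0.14. Between genotypes on control medium 3 were higher and 1 lower in otu5, beside 10.4% of all genes called (list median -0.01); HMA2 averaged 29.1 ± 2.55 RPKM against 10.2 ± 0.615 (log2 1.47, SE 0.20, limma adjusted p = 0.0028), and ZIP1 23.9 ± 2.34 against 13.6 ± 1.17 (log2 0.79, SE 0.10, adjusted p = 0.0021). On low phosphate 1 was higher and 2 lower in otu5 than in WT, beside 9.91% of all genes (list median -0.03), with ZIP9 at -1.12 (limma adjusted p = 0.0053) and ZIP2 at -0.81 (adjusted p = 0.00096). No gene of these lists passed the interaction; ZIP9 had -1.20 there (SE 0.26, limma adjusted p = 0.32). All 8 genes of phytochelatin and glutathione synthesis, transport and recycling were tested and passed in 1 pairwise comparison, where 2 were higher on low phosphate in otu5, beside the same 8.59%: glutathione reductase GR1 (0.41, limma adjusted p = 0.049) and the vacuolar transporter ABCC2 (0.25, adjusted p = 0.024). The calls of HMA5, ZIP3, HMA2, GR1 and ABCC2 in otu5 were each lost without otu5 control replicate 2, otu5 control replicate 3 or otu5 low Pi replicate 1 (limma adjusted p between 0.065 and 0.15). Phytochelatin synthase PCS1 stood between 42.8 and 47.4 RPKM as a mean in the 4 groups.

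**Figure D5:**
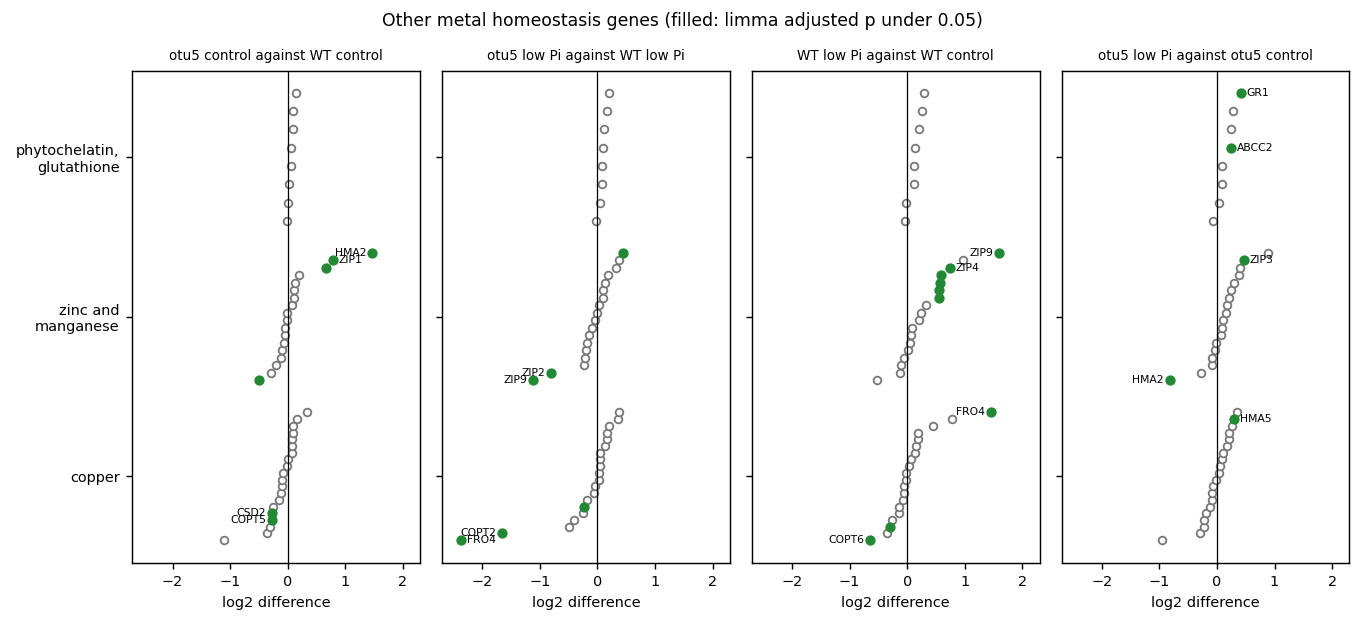
Log2 difference on the scale log2(RPKM + 0.5) of each tested gene of the copper (20), zinc and manganese (18) and phytochelatin and glutathione (8) lists in the pairwise comparisons, sorted by value within a list; filled points passed in limma at an adjusted p under 0.05, and named points are those given in the text. In WT on low phosphate 6 zinc and manganese genes are filled on the positive side.

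Markers of other tissues moved along with some of these comparisons. The 20 green shoot genes summed to between 1759 and 2211 RPKM in WT control, 1399 and 1787 in WT low Pi, 2416 and 2594 in otu5 control and 1793 and 1844 in otu5 low Pi. Of these, 6 were higher in otu5 on control medium (2 to 7 with a library left out) and 2 on low phosphate (0 to 5), with none lower. On low phosphate 2 were lower in WT (0 to 4 with a library left out) and 11 in otu5 (3 to 7). The 9 phloem genes summed to between 254 and 274 RPKM in WT control, 224 and 274 in WT low Pi, 285 and 311 in otu5 control and 239 and 285 in otu5 low Pi, with 2 higher in otu5 on control medium and 2 lower on low phosphate within otu5 (0 to 2 with a library left out). The 8 endodermis genes summed to between 285 and 307 RPKM in WT control, 234 and 288 in WT low Pi, 235 and 287 in otu5 control and 201 and 219 in otu5 low Pi, with 1 lower in otu5 on each medium and 1 lower on low phosphate within otu5. Of all genes tested, 10.4% were called in either direction between genotypes on control medium and 9.91% on low phosphate. Between media, 4.29% were called in WT and 8.59% in otu5. Counts of 1 or 2 in lists of 9 and 8 genes do not stand apart from those shares. In the contrast averaged over media, 10 of 20 shoot markers (8 to 12 with a library left out) and 2 of 9 phloem markers (2 to 4) were higher in otu5. Lower in otu5 were 5 of 8 endodermis markers (2 to 6). Of all genes tested, 25.5% were called in either direction in that contrast and 13.7% were called lower. The contrast averaged over genotypes called MT2A higher and MT3 lower. There 16 of 20 shoot, 5 of 8 endodermis and 3 of 9 phloem markers were lower on low phosphate, beside 8.52% of all genes. With a library left out these became 14 to 19, 2 to 5 and 2 to 3. MT1A, MT1C and MT2B were lower in otu5, where the shoot and phloem sums on control medium were above those of WT. Most of the rise in the phloem sum lay in PP2-A1, the most abundant of the 9 phloem genes. Of these 9, 6 had positive and 3 negative log2 differences in otu5 control against WT control, so the sum does not speak for every phloem marker. The endodermis sums in otu5 were below those of WT on low phosphate and overlapped them on control medium. On low phosphate the phloem sums of the genotypes overlapped. The part of tissue make-up in the metallothionein differences was not tested. Seed markers stood out in WT control, where the 9 genes reached a sum of 32.1 RPKM in 1 library against at most 1.19 in any other group, and 4 of them stayed below 1 RPKM in all libraries.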

How the data were processed

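PolyA RNA of 12 root libraries in 4 groups was measured. The values are RPKM per gene, which the authors computed and deposited as 1 table; TopHat2 2.0.4, Cuffdiff and TAIR10 are named, per the submitters' processing notes, without their roles, and strandedness, the treatment of shared reads and scaling are not given in the sources used here. No read counts were used, so depth is unknown; steps between low values gave relative depths between 0.671 and 1, but at most 28.2% of low genes held the commonest ratio, and no count test was run. Rows that reached 1 RPKM in 3 or more libraries were kept (20411 of 33557) and log2(RPKM + 0.5) was fitted with limma 3.58.1 in R 4.3.3, with trend and robust estimation, 1 mean for each of 4 groups and 8 residual degrees of freedom. P-values were adjusted by Benjamini-Hochberg over all tested genes, and under 0.05 counted as a call; single members also had an exact two-sided permutation test. The script was tested on simulated data. Replicates correlated at r between 0.969 and 0.983 and shared at most 0.299% identical values.

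Same-numbered WT libraries deviated together across the media (r = 0.204, 0.259 and 0.114, across genes), which the replicate numbers in the titles allow as a pairing; in the other 3 comparisons not every same-numbered pair did, r lying between -0.152 and 0.204. The labels give no batch or date. Names, overlaps and locus lengths come from the RefSeq table of TAIR10.1, which matched 32810 rows (97.8%); the build differs, so no coordinates are given.

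Members and gene lists were chosen with earlier results of these data known. Named are the 5 members, MT1B, MT4A and MT4B, OTU5, overlapping genes, the 3 genes most like each member, and per list and pairwise comparison at most 2 called genes of largest log2 change. PP2-A1 is named as the most abundant phloem marker. Alternatives were pseudocounts of 0.1 and 1, no filter, a filter of 5 RPKM, quantile normalization, division by the library sum without AT2G01021, no trend, library weights, a replicate block, fits of 2 groups and leaving out each library. The WT-only block and the contrasts averaged over media or genotypes were chosen after seeing the data.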

Additional observations from a re-analysis of the deposited data

How the results depend on the processing

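Of the values for the members and MT1B, 302 kept direction and side of the threshold under other settings, 20 lost and 12 gained a call and 6 turned sign; with a library left out the numbers were 256, 24, 4 and 16. Members called in otu5 control against WT control (2) became 0 with no filter, 1 with quantile normalization, division by the library sum or a fit of 2 groups, 4 with library weights and 0 to 2 with a library left out; in otu5 low Pi against WT low Pi (3) they became 1 with no filter, 0 with quantile normalization or a fit of 2 groups, 4 with division by the library sum or library weights and 1 to 4 with a library left out; in otu5 low Pi against otu5 control (0) they became 1 with a filter of 5 RPKM, quantile normalization, division by the library sum, library weights or a fit of 2 groups and 0 to 1 with a library left out; in WT low Pi and the interaction they stayed at 0. Quantile normalization sets the value of MT1A by its rank alone, so whether MT1A is called under it is no test of MT1A. That rank was 2, below AT2G01021, in WT control replicate 3, otu5 control replicate 1 and otu5 low Pi replicate 1. It was 1 in all other libraries, and MT1A then differed by 0.00 between genotypes on control medium. Genes called in all were 156 with no filter, 2005 with library weights, 1696 with the replicate block in WT alone and 240 to 598 with a library left out for WT low Pi (875); 393, 7631, 855 with 2 groups and 503 to 2483 for otu5 low Pi against otu5 control (1754); 487, 6795 and 703 to 1610 for otu5 control against WT control (2117); and 602, 4382, 502 with 2 groups, 3201 by library sum and 824 to 2254 for otu5 low Pi against WT low Pi (2023). The interaction (1) became 5 with no filter, 2 without trend, 147 with library weights, 0 with the replicate block and 0 to 17 with a library left out. The replicate block over all 4 groups changed no member's call. Signs turned, always without a call, under quantile normalization for MT1A (0.36) and MT2B (-0.05) in WT low Pi, MT2B in otu5 low Pi against otu5 control (0.04; 0.02 by library sum) and in the interaction (0.09), and MT1A averaged over genotypes (0.18). With a library left out they turned for MT2B in WT low Pi (-0.03 to 0.08), otu5 low Pi against otu5 control (-0.07 to 0.03), the interaction (-0.09 to 0.03) and the averaged low Pi difference (-0.02 to 0.04), for MT1C in otu5 low Pi against otu5 control (-0.02 to 0.11), and in the interaction for MT3 (-0.03 to 0.08) and MT1B (-0.43 to 0.61). The MT1A values under quantile normalization follow from its ranks alone. The cause of the other shifts was not tested. Depth is unknown, so no counting error can be given.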
